A study of Mus musculus with 43 samples.

Results

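Cytochrome P450 enzymes are haem proteins that insert an oxygen atom into their substrates, taking electrons from NADPH through the reductase Por in the endoplasmic reticulum or through ferredoxin in mitochondria. In the small intestine, members of the Cyp2, Cyp3 and Cyp4 families oxidise drugs and diet-derived compounds and hydroxylate or epoxidise fatty acids. Other families act on sterols, bile acids and steroid hormones. Absorptive enterocytes of the villus are known as the main site of drug-oxidising P450 enzymes in the gut, and nuclear receptors such as Nr1i2 (PXR) and Nr1i3 (CAR) are textbook regulators of the Cyp2b, Cyp2c and Cyp3a genes.

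The genes described here are all symbols that begin with Cyp and a digit, without pseudogene symbols ending in -ps, in 3 deposited tables of FPKM (fragments scaled by transcript length and library size). There were 100 such genes among 23951. Of these, 38 reached 1 FPKM in at least 1 of 18 bulk RNA libraries: 19 of 49 Cyp2 genes, 3 of 9 Cyp3 genes, 9 of 20 Cyp4 genes and 7 of 22 genes of other families. A further 10 of the 100 were listed at 0 in all 18 libraries. Just below the limit were Cyp4a29, Cyp2d10 and Cyp11a1, with highest values of 0.668, 0.843 and 0.920 FPKM. Just above it were Cyp4f39, Cyp4a32 and Cyp2d34, with 1.02, 1.15 and 1.32 FPKM.

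The study treated primary small-intestinal organoids from wild-type C57BL/6 mice with the cytokine TGFB1. Organoids are crypt-derived epithelial cultures grown in a gel, without the stroma or immune cells of the tissue. One set was not irradiated and collected on day 7 of culture (D7 non-IR). A second set received 4 Gy on day 4 and was collected on day 7 (D7 IR), and another set received the same dose and was collected on day 11 (D11 IR). In each set, 3 libraries came from organoids given vehicle and 3 from organoids exposed to TGFB1 at 2 ng/mL for 24 h from day 6, so the D11 organoids were collected 4 days after the end of that 24 h exposure. The labels do not say whether the 3 libraries of a group came from separate mice or cultures, and the p-values measure the spread between these libraries only. Single-cell RNA libraries, with 1 library at each time, came from irradiated organoids on day 8 after 0 (vehicle), 6, 15 or 24 h with 1 ng/mL TGFB1. A further 3 single-cell libraries held sorted Ki67-RFP-positive, that is cycling, crypt cells of the proximal small intestine of Mki67tm1.1Cle/J mice: 1 from non-irradiated mice and 2 from mice 56 h after 12 Gy to the whole body.

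The FPKM tables hold no read totals. The steps between low values of a library were between 0.870 and 1.09 times those of vehicle replicate 1 of its table. A smaller step goes with a greater depth. D11 vehicle replicate 3 stood apart from the other vehicle libraries of its day. Over the 32 P450 genes whose mean reached 1 FPKM in that group, the median coefficient of variation was 24.1%, against 4.45% over 30 genes in D7 IR vehicle and 9.55% over all 11359 genes of the D11 vehicle group. The organoids carried enterocyte markers in all 6 groups. Summed markers of immune cells reached at most 10.9 FPKM and those of mesenchymal cells at most 4.79 FPKM, both in D7 IR organoids with TGFB1. In bulk RNA, fewer cells of a type and less RNA per cell cannot be told apart.

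**Figure D1:**
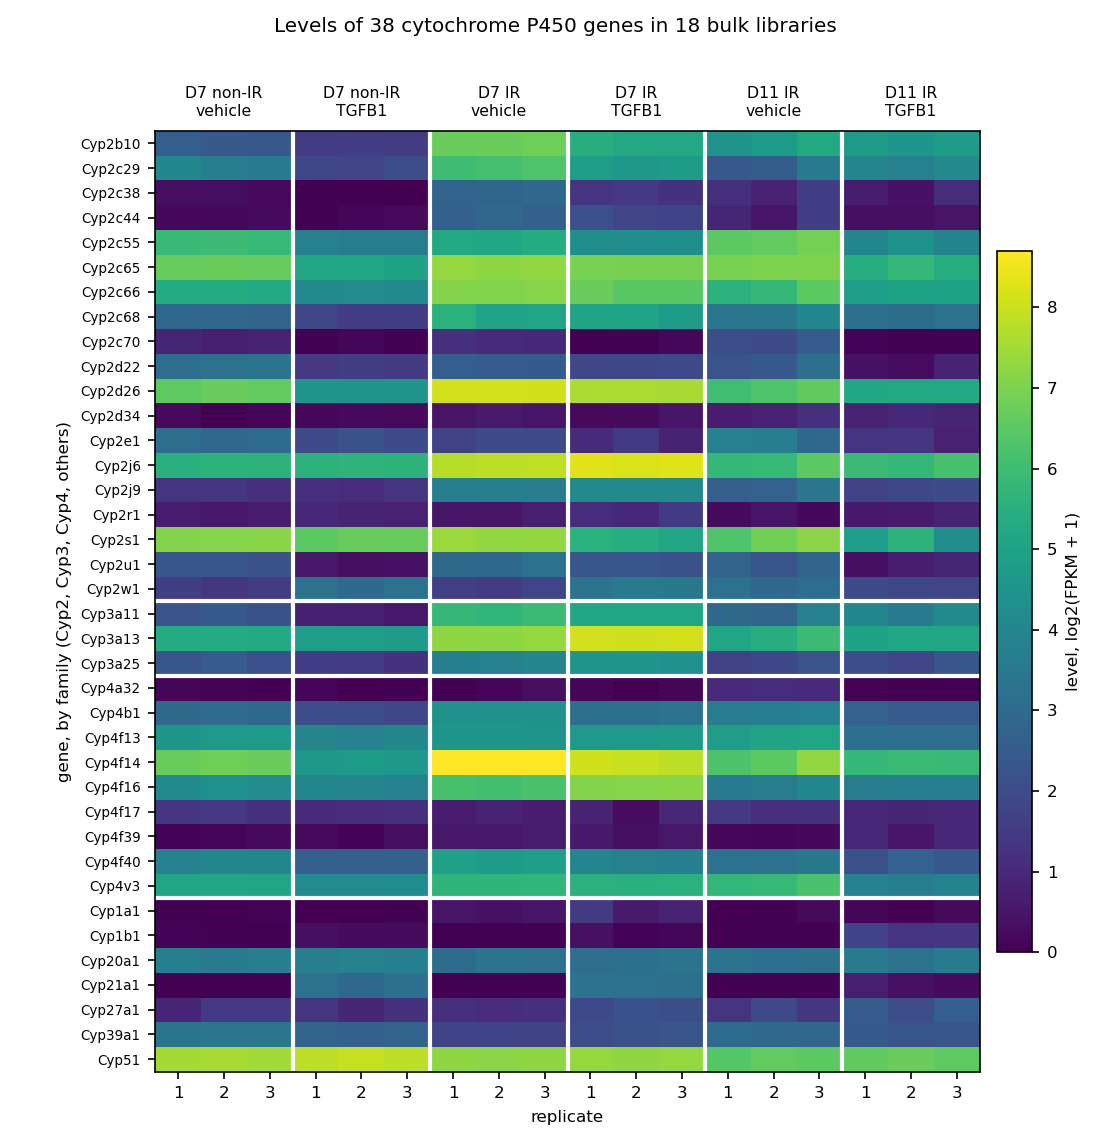
Levels of the 38 P450 genes in 18 bulk libraries on a log2(FPKM + 1) scale, with genes in rows by family and replicates in columns by group. Cyp4f14, Cyp2j6, Cyp2d26 and Cyp3a13 reached the highest colours in the D7 IR libraries, and Cyp51 was high in all groups.

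The summed P450 level was lower with TGFB1 in each set. In D7 non-IR organoids the 38 genes summed to 993 ± 25.5 FPKM with vehicle and 626 ± 12.5 FPKM with TGFB1 (SD, n = 3 libraries each). In D7 IR organoids the sums were 2236 ± 41.3 and 1909 ± 39.7 FPKM, and in D11 IR organoids 1041 ± 203 and 554 ± 20.8 FPKM. The vehicle and TGFB1 libraries of a set did not overlap in this sum. The Cyp2 genes went from 534 ± 13.4 to 254 ± 5.68 FPKM in D7 non-IR organoids. Cyp4 genes went from 205 ± 7.42 to 81.2 ± 0.258 FPKM in the same set. The Cyp3 sum moved in opposite directions at D7: from 47.5 ± 1.72 to 29.9 ± 1.01 FPKM without irradiation and from 222 ± 9.19 to 332 ± 5.23 FPKM after it. The mean sum of the 7 genes of other families was higher with TGFB1 in all 3 sets. It went from 207 ± 3.85 to 261 ± 7.17 FPKM without irradiation, 163 ± 3.44 to 182 ± 5.07 FPKM after it at D7 and 107 ± 6.16 to 118 ± 3.89 FPKM at D11. At D11 the highest vehicle library, at 113.4 FPKM, lay just under the lowest TGFB1 library, at 113.6 FPKM. Cyp1b1, which reached 1 FPKM only in the D11 TGFB1 libraries, added 1.55 to 2.4 FPKM there. Not all 7 genes rose: Cyp39a1 was called lower without irradiation and at D11, and Cyp51 was not called after irradiation. These sums were not tested.

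Gene by gene, limma was fitted on log2(FPKM + 1) for all genes whose mean reached 1 FPKM over the libraries in the fit, and a gene was called at an adjusted p under 0.05. All log2 changes below are differences on the log2(FPKM + 1) scale, TGFB1 against vehicle, ± their standard error, and they understate the change of genes near 1 FPKM. In D7 non-IR organoids, 22 of 29 tested P450 genes were lower, 3 were higher and 4 were not called, with a median change of -0.92. Over all 11330 genes tested, 34.9% were lower and 33.3% higher, with a median of -0.02. In D7 IR organoids, 17 of 30 were lower, 10 higher and 3 not called, with a median of -0.43, against 39.7% lower and 35.8% higher over all genes and a median of -0.03. In D11 IR organoids, 19 of 30 were lower, 2 higher and 9 not called, with a median of -0.87, against 31.6% lower and 32.3% higher over all genes and a median of 0.01. The count of 2 higher was 4 without vehicle replicate 3, 1 without TGFB1 replicate 1 or 3, and 5 in a joint fit of all 18 libraries.

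Changes of at least 2-fold on the log2(FPKM + 1) scale, that is of 1 or more, were counted as well. At D7 without irradiation 11 of 29 (37.9%) were lower by at least 2-fold against 2.92% of all genes tested, and 2 were higher against 5.52%. After irradiation at D7, 6 of 30 (20%) were lower against 5.39% and 2 were higher against 7.79%. At D11, 13 of 30 (43.3%) were lower against 8.04% and 1 was higher against 5.67%. Some called genes outside these counts differed by over 2-fold in their mean FPKM itself. In D7 non-IR organoids they were Cyp2b10, Cyp2e1, Cyp4b1 and Cyp3a25, lower by 2.35, 2.31, 2.29 and 2.23 times. In D7 IR organoids they were Cyp2e1, Cyp2c44 and Cyp2c55, lower by 2.25, 2.09 and 2.04 times, and Cyp27a1, higher by 2.65 times. At D11 they were Cyp4f40 and Cyp2c66, lower by 2.09 and 2.06 times, and Cyp27a1, higher by 2.2 times. Called lower in each of the 3 tables were Cyp2c55, Cyp2c65, Cyp2c66, Cyp2d22, Cyp2d26, Cyp2e1, Cyp2s1, Cyp2u1, Cyp4b1, Cyp4f14, Cyp4f40 and Cyp4v3. The share of all genes called lower in each of the 3 was not counted, so this list does not set P450 genes apart.

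**Figure D2:**
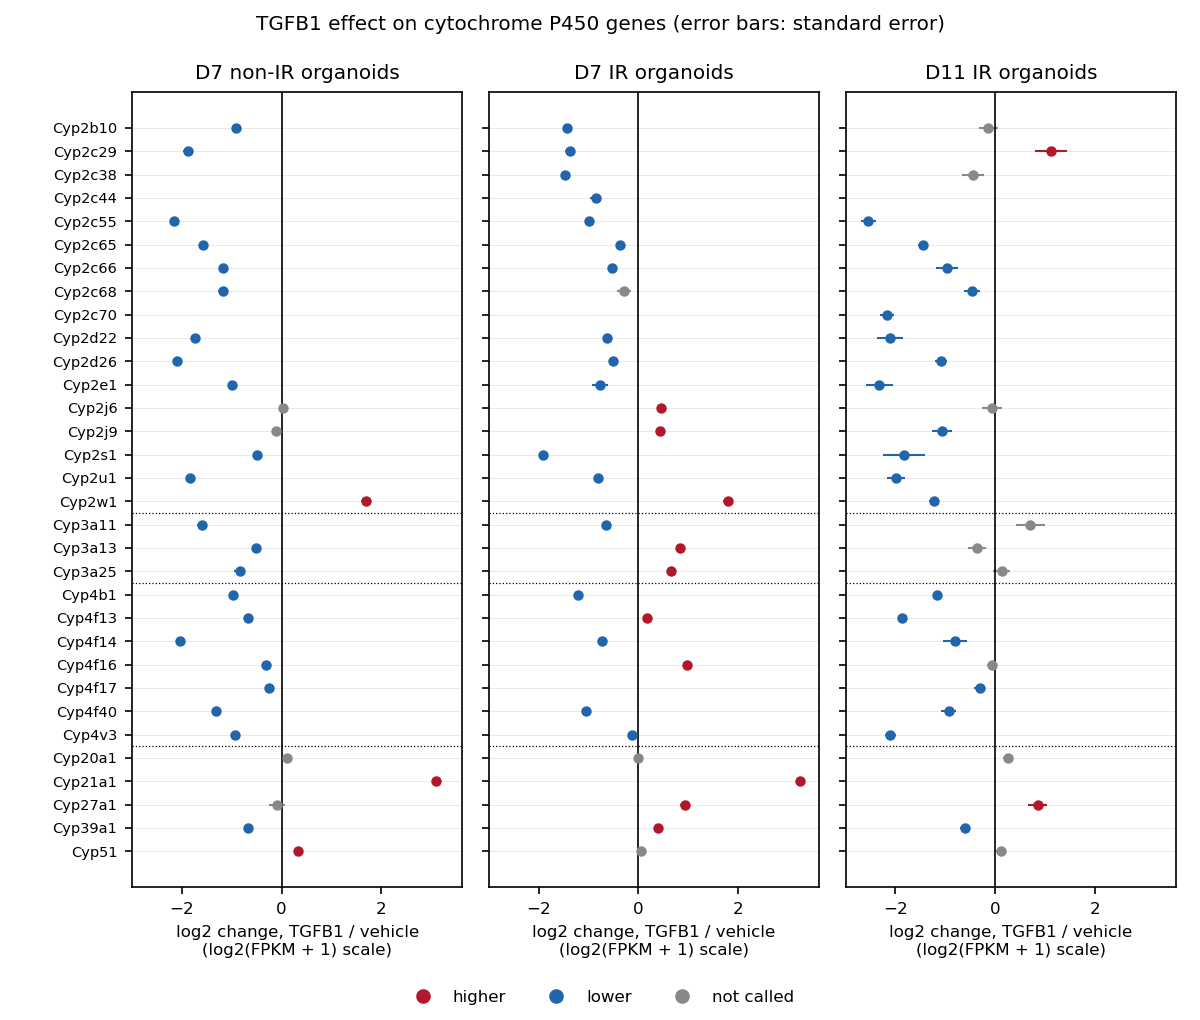
Change with TGFB1 in each bulk table for the 32 P450 genes tested in at least 1 of them, as log2 TGFB1 over vehicle on the log2(FPKM + 1) scale with its standard error, coloured by call. Most points lie left of 0 in the D7 non-IR and D11 IR panels, and Cyp3a13, Cyp3a25, Cyp4f16 and Cyp2j6 lie right of 0 in the D7 IR panel.

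Of the Cyp2 genes, 11 of 14 tested were lower and 1 higher in D7 non-IR organoids, 12 of 16 lower and 3 higher in D7 IR organoids, and 12 of 16 lower and 1 higher at D11. Among them, Cyp2c55 had the largest called fall in D7 non-IR and D11 IR organoids. Cyp2c55, an arachidonic acid hydroxylase, measured 56.9, 62.1 and 56.5 FPKM with vehicle and 12.9, 12 and 12 with TGFB1 in D7 non-IR organoids. In D7 IR organoids it measured 38.2, 36.4 and 41 FPKM with vehicle and 19.4, 18 and 19.2 with TGFB1, and in D11 IR organoids 89.5, 97.9 and 117 FPKM with vehicle and 15, 21.1 and 14.2 with TGFB1. The groups did not overlap in any set, and the level with TGFB1 was between 12.0 and 21.1 FPKM in all 9 treated libraries. On the log2 scale Cyp2c55 fell by 2.16 ± 0.05 (adjusted p = 5.67e-11), 0.99 ± 0.05 (adjusted p = 3.77e-08) and 2.54 ± 0.15 (adjusted p = 2.1e-06) in the 3 sets.

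Cyp2c65 and Cyp2c66 are closely related genes of the same cluster on chromosome 19 that are expressed in the gastrointestinal tract. Cyp2c65 measured 102, 108 and 102 FPKM with vehicle and 36.1, 35.6 and 31.4 with TGFB1 without irradiation, 159, 149 and 158 FPKM with vehicle and 123, 119.5 and 119.8 with TGFB1 in D7 IR organoids and 123, 128 and 129 FPKM with vehicle and 41.8, 54.7 and 42.2 with TGFB1 at D11. It fell by 1.57 ± 0.05, 0.36 ± 0.04 and 1.44 ± 0.11. The D7 IR fall was the smallest of these. Cyp2c66 measured 40.2, 40.7 and 37.5 FPKM with vehicle and 17, 17.4 and 16.5 with TGFB1 without irradiation. After irradiation it measured 136, 132 and 139 FPKM with vehicle and 104, 88.9 and 88.4 with TGFB1 at D7 and 47.2, 54.7 and 89.3 FPKM with vehicle and 28.8, 32.3 and 31.7 with TGFB1 at D11, and it passed the test in all 3 sets (adjusted p = 2.34e-09, 1.78e-05 and 0.00812).

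Cyp2c68 belongs to the same cluster. It measured 6.47, 6.32 and 5.95 FPKM with vehicle and 2.62, 1.98 and 2.01 with TGFB1 without irradiation and fell by 1.18 ± 0.08 (adjusted p = 3.43e-07). In D7 IR organoids it measured 46.5, 33.1 and 34.9 FPKM with vehicle and 32.5, 33.1 and 27 with TGFB1, where the groups overlapped and the test was not passed (adjusted p = 0.118). At D11 it measured 9.77, 10.2 and 15.8 FPKM with vehicle and 8.09, 7.47 and 8.83 with TGFB1 with a change of -0.47 ± 0.16 (adjusted p = 0.027). That D11 call was lost without D11 TGFB1 replicate 1 (adjusted p = 0.0692) or replicate 2 (adjusted p = 0.0822), and the D7 IR change passed without D7 IR vehicle replicate 2 (adjusted p = 0.0452).

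Cyp2c70, which makes the muricholic bile acids of the mouse, was low and tested at D11 alone. It measured 3.25, 3.07 and 4.61 FPKM with vehicle and 0.0726, 0 and 0 with TGFB1 there and fell by 2.17 ± 0.14 (adjusted p = 9.73e-07). Cyp2c70 entered that fit only through its vehicle libraries, so the p-value is no separate evidence of a fall. At D7 its values were 0.856, 0.645 and 0.784 FPKM with vehicle and 0.042, 0.0842 and 0 with TGFB1 without irradiation and 1.3, 1.09 and 0.951 FPKM with vehicle and 0, 0.0439 and 0.136 with TGFB1 after it. The 9 libraries with TGFB1 were at most 0.136 FPKM, under each of the 9 vehicle libraries.

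Promoters of these genes were searched for 2 motifs of transcription factors. RefSeq (GRCm38.p6) promoter windows, 250 bases before to 50 bases after the start, were matched by symbol for 31 of the 38 genes. The HNF4 motif CAAAGTCCA, searched on both strands, was in 4 of the 31 (12.9%): Cyp2c65, Cyp2c68, Cyp2c70 and Cyp3a11. It was in 156 of 32851 promoter windows of the table (0.475%). The first share counts genes and the second counts windows. Of the 4 genes, 3 are related Cyp2c genes on chromosome 19, so their matches are not independent. HNF4 factors are nuclear receptors of enterocytes and hepatocytes. In these 4 promoters the motif was on the strand of the gene and began 116, 77, 64 and 109 bases before the start. The aryl hydrocarbon receptor motif TNGCGTG was in 1 of the 31, Cyp2c68, on the strand opposite to the gene, and in 5.07% of all windows. The 250 bases before the start of the 4 genes are shown 5′ to 3′ on the strand of the gene. Capitals mark CAAAGTCCA in each and, in Cyp2c68, CACGCTA, the reverse complement of the TNGCGTG match. The 2 motifs do not overlap.
Cyp2c65 (chr19:39060756-39061005, + strand): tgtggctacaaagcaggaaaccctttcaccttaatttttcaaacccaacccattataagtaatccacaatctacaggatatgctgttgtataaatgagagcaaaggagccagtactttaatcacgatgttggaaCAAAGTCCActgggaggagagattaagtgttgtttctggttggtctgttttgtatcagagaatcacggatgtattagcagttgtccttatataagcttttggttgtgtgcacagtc
Cyp2c68 (chr19:39741102-39741351, - strand): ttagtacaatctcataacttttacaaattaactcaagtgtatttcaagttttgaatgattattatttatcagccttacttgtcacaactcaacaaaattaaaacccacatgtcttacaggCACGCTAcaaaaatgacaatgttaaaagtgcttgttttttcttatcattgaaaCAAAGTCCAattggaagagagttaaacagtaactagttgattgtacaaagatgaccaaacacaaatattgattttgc
Cyp2c70 (chr19:40187287-40187536, - strand): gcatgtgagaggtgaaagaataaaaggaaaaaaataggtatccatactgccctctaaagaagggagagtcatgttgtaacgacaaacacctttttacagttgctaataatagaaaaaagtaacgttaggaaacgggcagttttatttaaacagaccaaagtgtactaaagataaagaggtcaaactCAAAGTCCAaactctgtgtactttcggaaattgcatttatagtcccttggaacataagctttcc
Cyp3a11 (chr5:145879855-145880104, - strand): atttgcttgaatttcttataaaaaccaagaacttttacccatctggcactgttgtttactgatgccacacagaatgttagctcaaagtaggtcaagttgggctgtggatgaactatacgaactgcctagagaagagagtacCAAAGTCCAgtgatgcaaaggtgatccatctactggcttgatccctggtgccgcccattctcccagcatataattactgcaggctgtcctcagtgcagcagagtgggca
A match is a run of letters and does not show that a factor binds there. The first 3 genes were lower with TGFB1 in D7 non-IR organoids or at D11, and Cyp3a11 is described with the Cyp3 genes.

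Cyp2c29 and Cyp2c38 are both epoxygenases of arachidonic acid. Cyp2c29 measured 15.4, 12.1 and 11.4 FPKM with vehicle and 2.63, 2.55 and 3.11 with TGFB1 without irradiation and 63.8, 69.4 and 78.8 FPKM with vehicle and 28.6, 24 and 27.1 with TGFB1 in D7 IR organoids, falling by 1.88 ± 0.10 and 1.38 ± 0.08. At D11 it measured 4.13, 4.96 and 10.9 FPKM with vehicle and 14.5, 12.9 and 15.9 with TGFB1 and rose by 1.11 ± 0.32 (adjusted p = 0.0244). This D11 call was lost on leaving out D11 vehicle replicate 1 (adjusted p = 0.0531) or 2 (0.0829), or D11 TGFB1 replicate 1 (0.0834), 2 (0.0547) or 3 (0.0845), and held without vehicle replicate 3. Cyp2c38 measured 6.06, 6.02 and 6.5 FPKM with vehicle and 1.56, 1.75 and 1.43 with TGFB1 in D7 IR organoids, where it fell by 1.48 ± 0.07, and 1.31, 0.764 and 1.96 FPKM with vehicle and 0.598, 0.344 and 1.22 with TGFB1 at D11, where the groups overlapped. Without irradiation it was at most 0.244 FPKM in all 6 libraries and was not tested. The annotation places Cyp2c39 over the same stretch as Cyp2c38, and Cyp2c39 did not exceed 0.0402 FPKM. Cyp2c genes are near-copies of each other, and how fragments matching several copies were shared between them is unknown here.

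Cyp2b10 is the classic target gene of Nr1i3. It measured 5.13, 4.43 and 4.24 FPKM with vehicle and 1.92, 2.00 and 1.95 with TGFB1 in D7 non-IR organoids. After irradiation at D7 it measured 104, 105 and 110.4 FPKM with vehicle and 42.1, 37 and 37.3 with TGFB1. It fell by 0.92 ± 0.08 (adjusted p = 1.16e-06) in the first set and by 1.44 ± 0.05 (adjusted p = 2.7e-09) in the second. At D11 the groups overlapped, with 21.6, 25.7 and 38.3 FPKM with vehicle and 25.7, 22.7 and 27 with TGFB1, and the change of -0.14 ± 0.19 did not pass the test. Without D11 vehicle replicate 3 it was 0.09, on the other side of 0.

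Cyp2d26 and Cyp2e1 fell in all 3 sets. Cyp2d26 measured 91.3, 105 and 97.4 FPKM with vehicle and 22, 21.6 and 22.4 with TGFB1 without irradiation. It measured 273, 274 and 271 FPKM with vehicle and 192, 195 and 190.2 with TGFB1 in D7 IR organoids and 65.3, 77.7 and 94.9 FPKM with vehicle and 35.1, 36.8 and 38 with TGFB1 at D11. It fell by 2.10 ± 0.05, by 0.50 ± 0.03 and by 1.08 ± 0.12, with the groups apart each time. Cyp2e1, which oxidises ethanol and other small molecules, measured 7.65, 6.76 and 7.29 FPKM with vehicle and 3.09, 3.44 and 2.87 with TGFB1 without irradiation. In the irradiated sets it measured 2.23, 2.93 and 2.98 FPKM with vehicle and 1.04, 1.81 and 0.763 with TGFB1 at D7 and 13.4, 12.3 and 6.51 FPKM with vehicle and 1.53, 1.61 and 0.742 with TGFB1 at D11, with falls of 0.77 ± 0.16 and 2.32 ± 0.27 (adjusted p = 0.00189 and 0.000192). Cyp2d22 (means between 0.447 and 8.48 FPKM) and Cyp2u1, a fatty acid hydroxylase (0.366 to 7.35 FPKM), also fell in the 3 sets.

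Cyp2j6 and Cyp2j9 rose in D7 IR organoids. Cyp2j6, known to be abundant in mouse small intestine, measured 45.5, 48.8 and 47.3 FPKM with vehicle and 47, 49.3 and 48.5 with TGFB1 without irradiation, where the groups overlapped. In the D7 IR set it measured 217, 225 and 232 FPKM with vehicle and 316, 298 and 313 with TGFB1 and rose by 0.46 ± 0.04 (adjusted p = 1.52e-06). At D11 it measured 54, 55.7 and 90.9 FPKM with vehicle and 60.0, 55.3 and 70.8 with TGFB1, with overlap and no call. Cyp2j9 measured 1.53, 1.6 and 1.3 FPKM with vehicle and 1.33, 1.13 and 1.46 with TGFB1 without irradiation and was not called there. It then measured 12.3, 12.2 and 12.1 FPKM with vehicle and 16.6, 16.7 and 16.7 with TGFB1 in D7 IR organoids, a rise of 0.42 ± 0.04, and 5.28, 5.64 and 9.88 FPKM with vehicle and 2.2, 2.71 and 3.1 with TGFB1 at D11, a fall of 1.07 ± 0.20 (adjusted p = 0.00167).

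Cyp2s1, a P450 of surface epithelia, was among the highest members without irradiation. It measured 135, 138 and 142 FPKM with vehicle and 89.4, 102 and 101 with TGFB1 in that set and fell by 0.50 ± 0.05. In the irradiated D7 set it measured 166, 155 and 155 FPKM with vehicle and 46.5, 41.9 and 36.5 with TGFB1, the largest called fall of a P450 gene in that table (1.91 ± 0.08, adjusted p = 2.04e-08). Its D11 values were 77.5, 114 and 145 FPKM with vehicle and 28.4, 48.7 and 19.1 with TGFB1, a fall of 1.83 ± 0.43 (adjusted p = 0.0169). The D11 call was lost without D11 vehicle replicate 2 (adjusted p = 0.0586), D11 vehicle replicate 3 (0.0562) or D11 TGFB1 replicate 1 (0.0628).

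Cyp2w1, known from fetal gut and colon tumours, moved the other way at D7. It measured 2.04, 1.58 and 1.84 FPKM with vehicle and 8.74, 6.91 and 8.55 with TGFB1 without irradiation and 2.13, 1.92 and 2.56 FPKM with vehicle and 8.97, 10.8 and 10.4 with TGFB1 after it. It rose by 1.68 ± 0.09 (adjusted p = 5.3e-08) and 1.79 ± 0.09 (adjusted p = 2.76e-08). At D11 the vehicle libraries were the high ones, with 8.64, 6.76 and 7.8 FPKM with vehicle and 2.97, 2.66 and 2.55 with TGFB1, and Cyp2w1 fell by 1.22 ± 0.11 (adjusted p = 8.12e-06). Of the remaining Cyp2 genes, Cyp2c44 was tested in D7 IR organoids and fell by 0.85 ± 0.11 from a vehicle mean of 5.72 FPKM. Cyp2d34 and Cyp2r1, a vitamin D hydroxylase, stayed below 2 FPKM in group mean and were not tested.

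**Figure D3:**
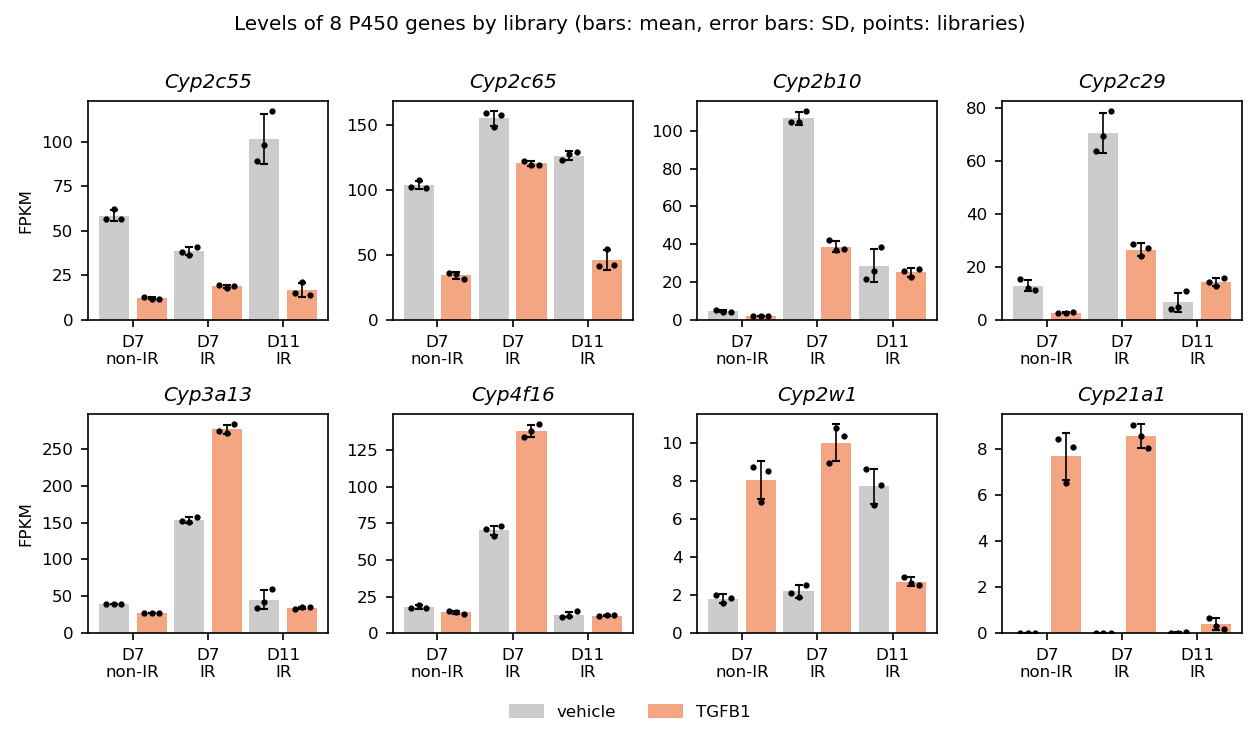
FPKM of 8 P450 genes in the 6 bulk groups, with bars for the mean, error bars for the SD and a point for each of the 3 libraries. Cyp2c55 fell in all 3 sets, Cyp3a13 and Cyp4f16 rose in D7 IR organoids, and Cyp21a1 was seen almost only with TGFB1.

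The 3 expressed Cyp3 genes oxidise drugs and steroids. Without irradiation all 3 fell. Cyp3a13 measured 39.8, 40.1 and 39 FPKM with vehicle and 27.8, 27.8 and 26.8 with TGFB1 and Cyp3a25 measured 3.85, 4.68 and 3.39 FPKM with vehicle and 2.08, 1.83 and 1.44 with TGFB1. Cyp3a11, a target gene of Nr1i2, measured 3.73, 4.5 and 3.47 FPKM with vehicle and 0.695, 0.677 and 0.488 with TGFB1 and had the largest change of the 3, -1.59 ± 0.10 (adjusted p = 1.08e-07).

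In irradiated organoids at D7, 2 of the 3 rose. Cyp3a13 measured 152, 150.4 and 158 FPKM with vehicle and 274, 272 and 283 with TGFB1, a rise of 0.84 ± 0.04 (adjusted p = 7.89e-09). Cyp3a25 measured 12.4, 12.9 and 14.6 FPKM with vehicle and 21.5, 22.1 and 20.3 with TGFB1, a rise of 0.64 ± 0.06 (adjusted p = 4.28e-06). Cyp3a11 measured 54.5, 51.9 and 60.1 FPKM with vehicle and 35.2, 34.2 and 35 with TGFB1 and fell by 0.66 ± 0.05 (adjusted p = 9.28e-07). The groups did not overlap for any of the 3.

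At D11 none of the 3 was called. The values were 7.03, 5.79 and 12.8 FPKM with vehicle and 14.9, 10.7 and 16.6 with TGFB1 for Cyp3a11, 34.8, 42 and 60.4 FPKM with vehicle and 32.5, 35.4 and 35 with TGFB1 for Cyp3a13 and 2.28, 2.7 and 3.64 FPKM with vehicle and 3.13, 2.5 and 4.06 with TGFB1 for Cyp3a25, and the groups overlapped for each. Single libraries moved these calls. Without D11 vehicle replicate 3, Cyp3a11 was higher by 1.01 (adjusted p = 0.000941), and without D11 vehicle replicate 1, Cyp3a13 was lower by 0.54 (adjusted p = 0.0128).

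Cyp4 enzymes hydroxylate the end of fatty acid chains, and the Cyp4f members act on leukotrienes and arachidonate. All 7 tested were lower in D7 non-IR organoids, 4 of 6 were lower and 2 higher in D7 IR organoids, and 6 of 7 were lower and none higher at D11. Cyp4f14, which inactivates leukotriene B in the mouse, was the P450 gene with the highest group mean per length in the data. It measured 101, 108 and 104 FPKM with vehicle and 24.1, 25.7 and 24.2 with TGFB1 without irradiation. It measured 410.4, 407 and 416 FPKM with vehicle and 266, 252 and 228 with TGFB1 in D7 IR organoids and 77.1, 89.8 and 156 FPKM with vehicle and 54.9, 60.5 and 59.3 with TGFB1 at D11. Cyp4f14 fell by 2.04 ± 0.04 (adjusted p = 2.2e-11), by 0.73 ± 0.05 (adjusted p = 3.91e-07) and by 0.81 ± 0.25 (adjusted p = 0.027). The D11 call was lost without D11 TGFB1 replicate 1 (adjusted p = 0.0828), 2 (0.0604) or 3 (0.0703).

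Cyp4f16 and Cyp4f13 rose in D7 IR organoids and fell without irradiation. Cyp4f16 measured 17, 19.6 and 17.3 FPKM with vehicle and 15, 14.5 and 13.2 with TGFB1 without irradiation, a fall of 0.31 ± 0.06, and 70.9, 66.6 and 73 FPKM with vehicle and 134, 138 and 143 with TGFB1 after it, a rise of 0.97 ± 0.04 (adjusted p = 1.05e-08). In D11 organoids it measured 11.4, 11.9 and 15 FPKM with vehicle and 11.8, 12.2 and 12.2 with TGFB1 with overlap. Cyp4f13 measured 22.9, 24.3 and 25.6 FPKM with vehicle and 15, 13.7 and 15.8 with TGFB1 without irradiation and 23, 23 and 21.8 FPKM with vehicle and 25.2, 25 and 26.9 with TGFB1 in D7 IR organoids, a rise of 0.18 ± 0.05 (adjusted p = 0.00506). Its D11 values were 28, 32.7 and 34 FPKM with vehicle and 8.11, 7.87 and 7.69 with TGFB1, a fall of 1.87 ± 0.09 (adjusted p = 1.61e-07).

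The other Cyp4 genes fell wherever they were tested. Cyp4f40 measured 13.6, 15.4 and 14.9 FPKM with vehicle and 5.23, 5.38 and 5.33 with TGFB1 without irradiation, 30.2, 26.9 and 29.3 FPKM with vehicle and 14.8, 12.9 and 12.5 with TGFB1 in D7 IR organoids and 8.63, 8.77 and 10.5 FPKM with vehicle and 3.47, 5.65 and 4.24 with TGFB1 at D11. Cyp4b1, a fatty acid and xenobiotic oxidase best known from lung, measured 6.99, 7.32 and 6.67 FPKM with vehicle and 3.19, 3.29 and 2.68 with TGFB1, 20.7, 21.3 and 21.2 FPKM with vehicle and 8.18, 8.31 and 8.95 with TGFB1 and 11.8, 12.2 and 13.2 FPKM with vehicle and 5.6, 4.7 and 4.74 with TGFB1 in the same order. Cyp4b1 fell by 0.98 ± 0.07, 1.22 ± 0.05 and 1.16 ± 0.09 in the 3 sets. Cyp4v3, a fatty acid hydroxylase, measured 33.7, 35.2 and 34.7 FPKM with vehicle and 17.5, 17.4 and 18 with TGFB1 without irradiation and 49.7, 50.5 and 52.3 FPKM with vehicle and 47.4, 45.2 and 46 with TGFB1 in D7 IR organoids, where its fall was 0.14 ± 0.04. In D11 organoids it measured 53.5, 55.6 and 72.4 FPKM with vehicle and 13.6, 12.3 and 13.7 with TGFB1 and fell by 2.10 ± 0.11 (adjusted p = 3.53e-07). Cyp4f17 fell by 0.25 ± 0.09 and 0.31 ± 0.11 in the 2 sets where it was tested, from vehicle means of 1.58 and 1.46 FPKM, and Cyp4a32 and Cyp4f39 were too low to be tested.

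Of the other families, Cyp21a1 changed most. This gene encodes the steroid hydroxylase used for corticosteroid synthesis in the adrenal cortex. Without irradiation it measured 0, 0 and 0.0145 FPKM with vehicle and 8.42, 6.5 and 8.08 with TGFB1. In the irradiated D7 libraries it measured 0, 0 and 0.0187 FPKM with vehicle and 9.05, 8.55 and 8.03 with TGFB1. It rose by 3.10 ± 0.09 (adjusted p = 4.7e-10) and 3.24 ± 0.08 (adjusted p = 2.04e-10). Cyp21a1 entered both fits only through its TGFB1 libraries, so these p-values are no separate evidence of a rise. It is among the genes counted as higher in both D7 sets. Its D11 values were 0, 0 and 0.0367 FPKM with vehicle and 0.672, 0.315 and 0.196 with TGFB1, still apart from vehicle but too low to be tested. The annotation puts the pseudogene Tnxa over part of Cyp21a1. The neighbours C4a, C4b and Tnxb stayed at or below 0.145, 0.228 and 0.00835 FPKM in all 18 libraries, while the neighbour Stk19 was at 5.35 to 16.4 FPKM. Cyp11a1, which starts steroid synthesis from cholesterol, did not pass 0.920 FPKM.

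Cyp51, the lanosterol demethylase of cholesterol synthesis, was the highest P450 gene without irradiation. It measured 182, 189.6 and 181 FPKM with vehicle and 227, 243 and 230.0 with TGFB1 in that set and rose by 0.34 ± 0.03 (adjusted p = 7.37e-06). After irradiation at D7 it measured 154, 146 and 151 FPKM with vehicle and 158, 151 and 160.5 with TGFB1 and at D11 83.5, 96 and 89.3 FPKM with vehicle and 94.3, 104 and 91.7 with TGFB1, with overlapping groups and no call in either. Cyp39a1, an oxysterol hydroxylase of bile acid synthesis, had means of 9.55 and 5.66 FPKM with vehicle and TGFB1 without irradiation, a fall of 0.66 ± 0.05. It rose by 0.39 ± 0.08 in D7 IR organoids, from 2.41 to 3.48 FPKM, and fell by 0.61 ± 0.10 at D11.

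Cyp27a1, the mitochondrial sterol hydroxylase, measured 0.895, 1.75 and 1.76 FPKM with vehicle and 1.53, 0.912 and 1.45 with TGFB1 without irradiation, where the groups overlapped. It measured 1.28, 1.15 and 1.23 FPKM with vehicle and 2.81, 3.62 and 3.27 with TGFB1 in D7 IR organoids and 1.54, 2.77 and 1.6 FPKM with vehicle and 4.75, 3.14 and 5.13 with TGFB1 at D11. It rose by 0.93 ± 0.09 (adjusted p = 4.2e-06) and 0.85 ± 0.19 (adjusted p = 0.00335) in the irradiated sets. Cyp20a1, a P450 of no agreed substrate, was the steadiest member. It measured 12.4, 10.6 and 12.3 FPKM with vehicle and 12.2, 13.5 and 12.5 with TGFB1, 7.49, 8.99 and 8.69 FPKM with vehicle and 7.67, 8.35 and 9.18 with TGFB1 and 8.98, 8.03 and 8.18 FPKM with vehicle and 11.3, 8.64 and 11 with TGFB1 in the 3 sets and was called in none.

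Cyp1a1 and Cyp1b1, the textbook targets of the aryl hydrocarbon receptor, stayed low and were not tested. Cyp1a1 measured 1.8, 0.536 and 0.794 FPKM in D7 IR organoids with TGFB1 and 0.387, 0.311 and 0.422 with vehicle, and did not pass 0.170 FPKM elsewhere. Cyp1b1 measured 2.4, 1.55 and 1.59 FPKM in D11 organoids with TGFB1 and at most 0.0269 FPKM in the D11 vehicle libraries.

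Levels with vehicle also differed between the sets. The 3 tables were made separately, so these levels are set side by side with no test. The folds counted here are again of mean FPKM + 1. Of 30 P450 genes whose mean reached 1 FPKM, 15 (50%) were at least 2-fold higher in D7 IR than in D7 non-IR vehicle organoids with no overlap between libraries, against 8.03% of all genes. A further 2 (6.67%) were at least 2-fold lower, Cyp2e1 and Cyp39a1, against 7.44%. Of the 15, Cyp2c38 and Cyp2c44 reached that mean only through D7 IR, at 6.19 and 5.72 FPKM against 0.212 and 0.154 FPKM without irradiation. Cyp2b10 stood at 107 against 4.60 FPKM, Cyp3a11 at 55.5 against 3.90 FPKM and Cyp2j9 at 12.2 against 1.48 FPKM. From D7 IR to D11 IR vehicle organoids, 14 of 31 (45.2%) were at least 2-fold lower and 5 (16.1%) at least 2-fold higher, against 3.28% and 3.51% of all genes. Cyp2c29 had the widest gap of these, with means of 70.7 FPKM at D7 and 6.65 FPKM at D11. Cyp4f17 is in neither count, although its means of FPKM itself, 1.58 without irradiation, 0.677 at D7 after it and 1.46 at D11, were 2.34-fold lower and then 2.16-fold higher with no overlap.

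Whether the TGFB1 change itself differed between sets was tested with interaction terms. The change was higher after irradiation than without it at D7 for 20 of 31 P450 genes and lower for 6, against 25.3% and 27.8% of all genes tested. All 3 Cyp3 genes were in the first group, with differences of 1.36 ± 0.05 for Cyp3a13, 1.48 ± 0.14 for Cyp3a25 and 0.94 ± 0.11 for Cyp3a11. Cyp2d26 had the largest positive difference, 1.60 ± 0.06 (adjusted p = 7.88e-11), and Cyp2s1 the largest negative one, -1.41 ± 0.10 (adjusted p = 9.16e-08). Of the 6 lower, Cyp2c38 and Cyp2c44 had vehicle means of only 0.212 and 0.154 FPKM without irradiation. They entered the fit through D7 IR, with vehicle means of 6.19 and 5.72 FPKM. At such low values the change on this scale is held close to 0. In mean FPKM itself, Cyp2c38 was lower by 13.3 times without irradiation and 3.92 times after it. For Cyp21a1 and Cyp2w1 the difference was 0.14 ± 0.12 and 0.10 ± 0.14, and it did not pass the test.

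From D7 IR to D11 IR, the change was lower at D11 for 16 of 31 genes and higher for 4, against 33% and 31.5% of all genes. The 2 largest negative differences were those of Cyp2w1, -3.01 ± 0.14, and Cyp21a1, -2.80 ± 0.16. Cyp4f13 followed with -2.05 ± 0.10 and Cyp4v3 with -1.97 ± 0.13. The 4 positive ones were Cyp2c29, Cyp3a11, Cyp2b10 and Cyp2c38, at 2.49 ± 0.37, 1.36 ± 0.33, 1.30 ± 0.22 and 1.03 ± 0.26. These 2 comparisons share the D7 IR libraries. Cyp21a1 entered the day comparison only through its D7 IR libraries with TGFB1, where it was high.

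Markers of cell types moved with several of these groups. The summed level of 12 enterocyte markers was 2500.1 to 2665 FPKM with vehicle and 1296 to 1414 with TGFB1 in D7 non-IR organoids. It was 12298 to 13236 and 19419 to 20230.1 FPKM in D7 IR organoids, and 2122 to 4289 and 1894 to 2201 FPKM at D11. The sum of 5 villus tip markers was 131 to 138 and 543 to 588 FPKM without irradiation, 305 to 327 and 1104 to 1208 after it, and 85.8 to 168 and 63.1 to 69.8 at D11. The sum of 8 regenerative markers was 342 to 379 and 2893 to 3010.5 FPKM without irradiation, 298 to 330.0 and 4706 to 5104 in D7 IR organoids and 217 to 269 and 4570.2 to 5438 at D11. The sum of 8 mitotic markers was 649.6 to 662 and 319.9 to 335, 791 to 796 and 182 to 222, and 691 to 763 and 711 to 821 FPKM in the same order. Regenerative sums were thus higher with TGFB1 in all 3 sets, and mitotic sums lower at D7 with overlapping groups at D11. No marker of these 4 lists was at 0 in a group. The enterocyte sum was thus lower beside the lower Cyp2, Cyp3 and Cyp4 sums without irradiation. In D7 IR organoids it was higher with TGFB1 where the Cyp2 and Cyp4 sums were lower, but its 12 genes were split. Of the 12, 11 were called lower and 1 higher without irradiation, 5 and 5 in D7 IR organoids, and 7 and 1 at D11. Over all genes tested, 34.9%, 39.7% and 31.6% were lower and 33.3%, 35.8% and 32.3% higher. The median change of the 12 was -1.35, 0.05 and -0.85. The part of cell makeup in the P450 values was not tested.

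Genes that supply electrons to P450 enzymes were read from a list. Of 8 redox partners, 6 were in the tables and tested. Por, the reductase, went from 144 to 166 FPKM without irradiation and 263 to 336 FPKM in D7 IR organoids, and was called higher in both. Fdx1 and Fdxr, which serve mitochondrial P450 enzymes, fell in both irradiated sets, Fdxr from 9.58 to 5.48 FPKM at D7 and 11 to 5.05 FPKM at D11. In all, 1 was higher and 3 lower in D7 non-IR organoids, 1 and 3 in D7 IR organoids, and 1 and 4 at D11. Over all genes tested, 33.3% were called higher and 34.9% lower without irradiation, 35.8% higher and 39.7% lower at D7 after it, and 32.3% higher and 31.6% lower at D11. With 6 genes, 3 lower is near those shares.

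Transcription factors that govern P450 genes were listed as well. Of 23 listed, 22 were tested: 14 were lower and 4 higher in D7 non-IR organoids, 13 and 3 in D7 IR organoids, and 17 and 2 at D11, against 34.9%, 39.7% and 31.6% of all genes lower and 33.3%, 35.8% and 32.3% higher. Their median change was -0.37, -0.19 and -0.68, against -0.02, -0.03 and 0.01 over all genes. Vdr, the vitamin D receptor, went from 84.2 to 23.6 FPKM, 176 to 78.1 FPKM and 242 to 50.3 FPKM in the 3 sets. Nr1i3 went from 11.1 to 3.17 FPKM, 27.2 to 19.2 FPKM and 19.7 to 2.81 FPKM, and was lower in each. Nr1i2 fell from 21.1 to 18.9 FPKM without irradiation and from 33.8 to 20.1 FPKM at D11, and was not called in D7 IR organoids. Hnf4a and Hnf4g were lower in all 3 sets, Hnf4g from 36.2 to 14.6 FPKM without irradiation and 92.3 to 71.2 FPKM after it. Ahr and Pparg were called higher in all 3, Ahr from 5.5 to 9.94 FPKM without irradiation.

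Other genes of xenobiotic oxidation and conjugation included phase II enzymes and dehydrogenases. Of 22 listed, all 19 tested were lower in D7 non-IR organoids, with a median change of -1.15. In the D7 IR set, 16 of 20 were lower and 2 higher, with a median of -0.41, and at D11 13 were lower and 3 higher, with a median of -0.87. Of all genes, 34.9%, 39.7% and 31.6% were lower and 33.3%, 35.8% and 32.3% higher in the 3 sets, with medians of -0.02, -0.03 and 0.01. Ephx1, the microsomal epoxide hydrolase, went from 185 to 69.7 FPKM, 188 to 63.7 FPKM and 309 to 107 FPKM in the 3 sets. Aldh1a1, a retinal dehydrogenase, fell at D7 and rose at D11, from 26.6 to 57.1 FPKM.

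Sterol synthesis genes were listed beside Cyp51. Of 17 listed, 16 were tested: 13 were higher and 1 lower in D7 non-IR organoids, where Cyp51 rose, with a median of 0.27, against 33.3% and 34.9% of all genes. In the irradiated D7 set, 3 were higher and 8 lower, against 35.8% and 39.7%, and at D11 4 were higher and 1 lower, against 32.3% and 31.6%. The difference between the D7 sets passed the test for 15 of the 16, each with the lower change after irradiation, against 27.8% of all genes. Among the enzymes of arachidonate and leukotriene metabolism, Alox12 went from 0.00331 to 13.6 FPKM without irradiation and 0.0111 to 4.5 FPKM in D7 IR organoids, and Ptgs2, the inducible cyclooxygenase, rose in all 3 sets. Of that list 4 of 7 tested were higher and 2 lower without irradiation, 4 of 6 and 1 in D7 IR organoids, and 2 of 7 and 2 at D11, against shares over all genes of 33.3% and 34.9%, 35.8% and 39.7%, and 32.3% and 31.6%.

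In single cells of the organoids, P450 transcripts sat mainly in enterocyte-like cells. At 0, 6, 15 and 24 h the organoid libraries held 2932, 4283, 2890 and 2218 usable cells. The median cell had 8202, 6709, 7805 and 10441 UMIs (unique molecular identifiers, counted transcript molecules). Of all 38 genes, 37 were matched by symbol and Cyp2c44 by its later name, Cyp2c23. Cells were clustered without the P450 genes, which gave 12 clusters numbered 0 to 11, and a cluster was named only where its markers led its genes. The 2 enterocyte-like clusters (0 and 2) and the villus tip-like cluster (7) held 36.6% of the cells and 72.2% of the P450 UMIs. A further cluster, 8, led by ribosomal pseudogenes, had enterocyte as its highest marker list but stayed unnamed. With it the shares were 39.8% of cells and 76.1% of P450 UMIs. At a finer clustering (resolution 1.0 in place of 0.6) more clusters stayed unnamed, and those named held 21.3% of P450 UMIs, while clusters whose highest list was enterocyte or villus tip held 79.8%. Doublets were not removed, and no test was made between clusters.

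The summed P450 level was 7136 and 6301 CPM (UMIs scaled to the library total) in the enterocyte-like clusters 0 and 2 and 8880 CPM in the villus tip-like cluster. It was 658 CPM in the mitotic-like, 596 CPM in the S phase-like, 497 CPM in the stem-like and 1172 CPM in the regenerative-like cluster. Among the unnamed clusters it was 8231 CPM in cluster 8, where 10 of the 22 members with at least 20 CPM in a cluster peaked, and 5101 CPM in cluster 6, which made up 18.7% of the 24 h cells and had noncoding RNAs such as Rpph1 among its leading genes. Cluster 3, also unnamed, stood at 2461 CPM with 10.7% of the P450 UMIs, and clusters 9 and 11 stood at 841 and 674 CPM. Free RNA in droplets can add a low count to all clusters, and its part in the levels of the cycling clusters was not tested. Cyp3a13 stood out in the villus tip-like cluster, at 3655 CPM against 747 and 533 CPM in clusters 0 and 2. That cluster held 27.3% of the Cyp3a13 UMIs with 3.37% of the cells. Cyp2c29 was also higher there, at 313 CPM against 168 and 138 CPM, while Cyp2b10 was lower, at 98.2 CPM against 387 and 478 CPM. Cyp51 was the most even of the 22 members with at least 20 CPM in a cluster, with 145 to 315 CPM over all 12 clusters.

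**Figure D4:**
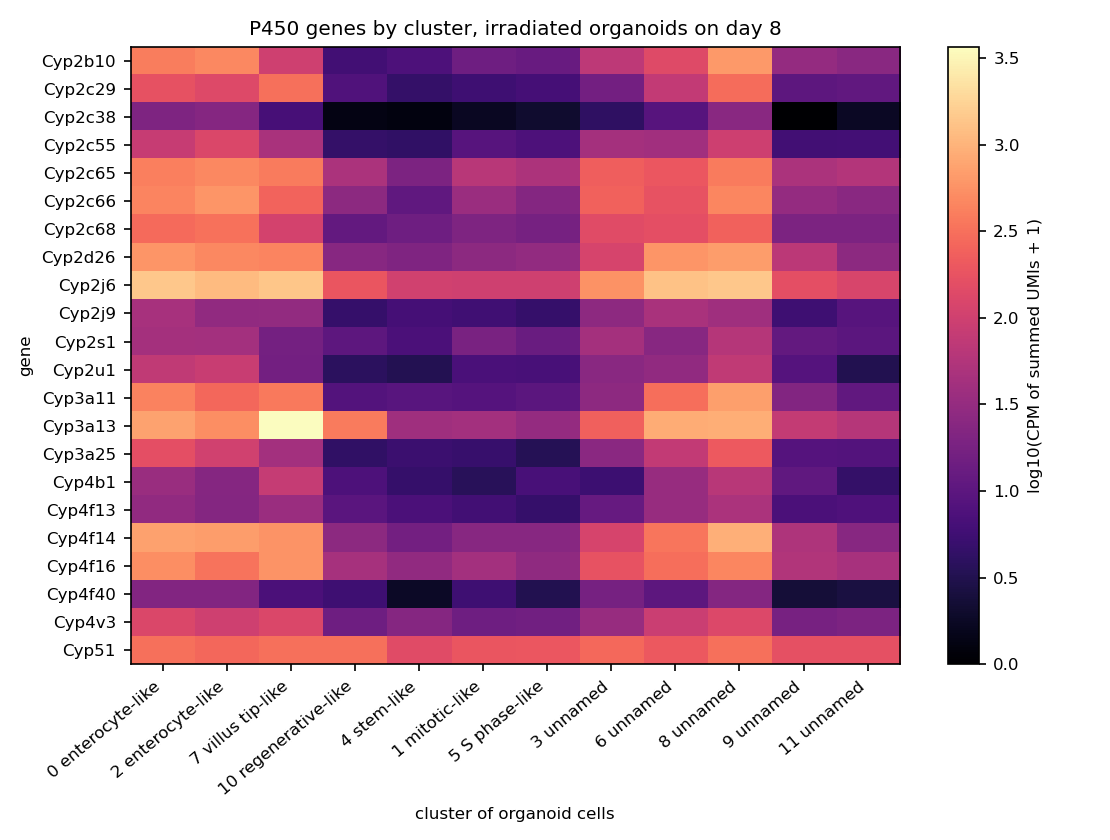
Level of the 22 P450 genes with at least 20 CPM in a cluster (rows) in the 12 clusters of day 8 irradiated organoid cells (columns), as log10 of CPM of summed UMIs plus 1. Enterocyte-like, villus tip-like and cluster 8 columns are bright for most genes, while Cyp51 is even across columns.

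Over time with TGFB1 the single-cell levels are values of 1 library each, with no test, and the intervals are exact 95% Poisson intervals that cover counting error only. Over all cells, Cyp2c55 measured 63.1 CPM (60.1 to 66.1), 48.4 CPM (46 to 50.9), 38.3 CPM (36 to 40.8) and 27.8 CPM (25.9 to 29.7) at 0, 6, 15 and 24 h. Cyp2c65 measured 278, 233, 196 and 156 CPM. Cyp2b10 was highest at 6 h, with 128, 312, 136 and 68.8 CPM. Cyp4f16 measured 145, 225, 268 and 245 CPM. The 38 genes summed to 3427, 3630, 3403 and 3036 CPM.

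Within the enterocyte-like clusters (1149, 1427, 957 and 562 cells at the 4 times) the same genes were read again. Cluster 2 held most of these cells at 0 and 6 h and cluster 0 at 15 and 24 h. Cyp2c55 measured 128, 113, 83.1 and 65.7 CPM, Cyp2c65 503, 484, 388 and 328 CPM and Cyp2c66 584, 607, 415 and 372 CPM. Each was lower at 24 h than at 0 h. Cyp2b10 measured 297, 817, 343 and 181 CPM and Cyp2c29 159, 245, 144 and 64 CPM, both highest in the 6 h library. Cyp4f14 measured 772, 851, 699.8 and 516 CPM and Cyp3a11 372, 489, 385 and 212 CPM. Cyp4f16 measured 282, 465, 549.6 and 556 CPM, Cyp3a13 507, 775, 706 and 687 CPM and Cyp3a25 92.4, 155, 169 and 144 CPM, with 0 h the lowest each time. Cyp2j6 measured 1313, 1169, 1305 and 1519 CPM.

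Ratios of the 24 h to the 0 h level in enterocyte-like cells ran from 0.403 for Cyp2c29 to 1.97 for Cyp4f16 over the 22 members with at least 20 CPM in these cells at some time. In the bulk D7 IR table Cyp2c29 was called lower and Cyp4f16 higher. For Cyp4v3, Cyp4f40 and Cyp4f13, with ratios of 0.931, 0.986 and 1.03, the counting intervals at 0 and 24 h overlapped. Each time is 1 library, and most of the cells came from cluster 2 at 0 h and cluster 0 at 24 h. The dose and day differ between the 2 experiments (1 ng/mL on day 8 and 2 ng/mL on day 7). Cyp51, not called in bulk, was 219 (210.1 to 229) CPM at 0 h and 318 (306 to 330.1) CPM at 24 h in enterocyte-like cells. In the stem-like, mitotic-like and S phase-like clusters together, Cyp2c65 measured 84.1, 51.6, 23.6 and 14.1 CPM.

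**Figure D5:**
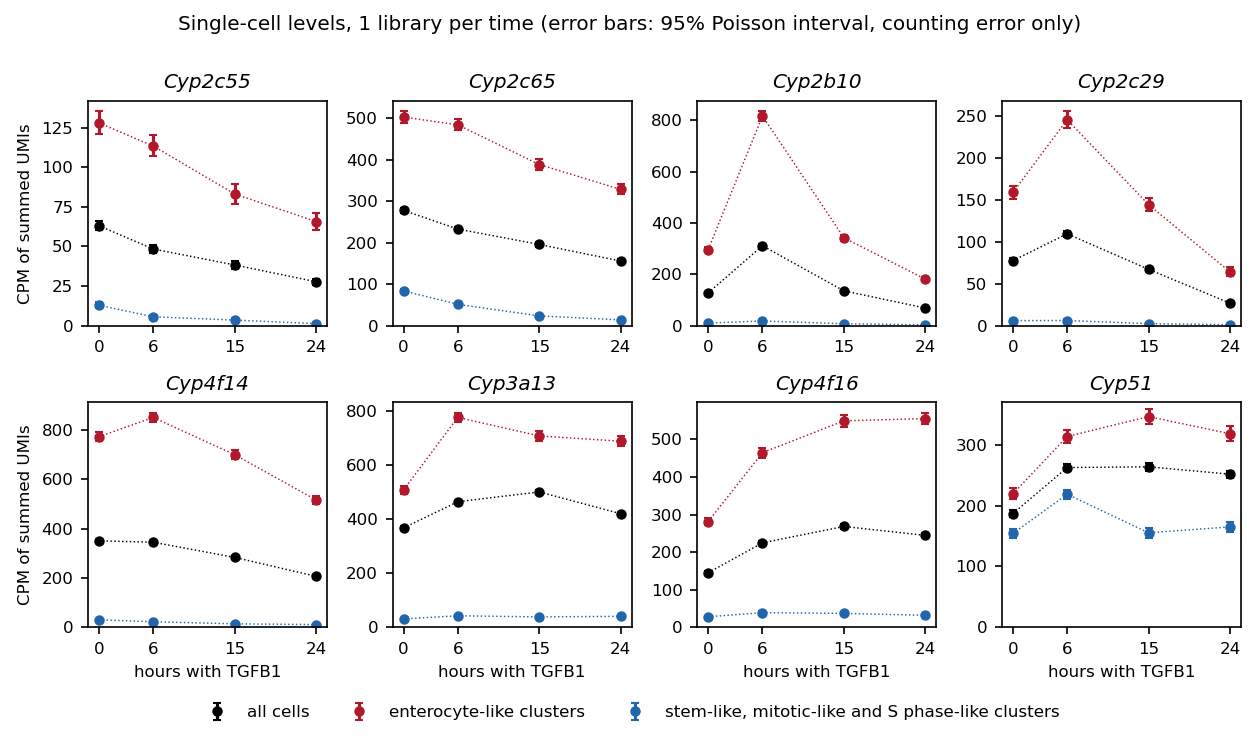
CPM of summed UMIs of 8 P450 genes after 0, 6, 15 and 24 h with TGFB1, 1 library per time, for all cells (black), enterocyte-like clusters (red) and stem-like, mitotic-like and S phase-like clusters together (blue), with 95% Poisson intervals. Cyp2b10 and Cyp2c29 peak at 6 h, Cyp2c55 and Cyp2c65 are lowest at 24 h, and Cyp4f16 is lowest at 0 h.

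In sorted cycling crypt cells the summed P450 level was below that of the organoid libraries. The sort keeps Ki67-RFP-positive cells, and the 2 materials also differ in tissue or culture, radiation dose and mouse line. The cause of the lower sum was not tested. There were 1846 usable cells without irradiation and 719 and 699 after it, whose median was 11969, 14399 and 13500 UMIs. Irradiated and non-irradiated crypts were passed through strainers of different mesh. The 38 genes summed to 500.0 CPM without irradiation and 296 and 438 CPM in the 2 irradiated libraries. These sums include Cyp2e1, which was higher in both irradiated libraries. Whether its UMIs came from that gene cannot be told, as given below. Enterocyte markers summed to 4026, 741 and 2516 CPM in the same order. With 1 library against 2 no test was made.

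Cyp4f14 measured 78.8 CPM (75.4 to 82.3) without irradiation and 10.4 CPM (8.76 to 12.2) and 22.9 CPM (20.3 to 25.7) after it. Cyp2s1 measured 41.1 CPM (38.7 to 43.7) against 8.3 CPM (6.85 to 9.97) and 10.7 CPM (8.95 to 12.7). Cyp4f40 measured 29 CPM against 6.86 and 6.82 CPM, and Cyp51 50.9 CPM against 65.2 and 62.3 CPM. The first 3 were thus lower in both irradiated libraries and Cyp51 slightly higher. Cyp3a11, by contrast, measured 3.49 CPM without irradiation and 6.47 and 33.5 CPM after it. An enterocyte-like cluster of 45 cells held 88.8% of these Cyp3a11 UMIs and made up 0.163% of non-irradiated cells and 1.25% and 4.72% of the cells of the 2 irradiated libraries. Clusters of crypt cells were split by irradiation, and 6 of the 10 clusters held cells almost only of 1 condition. The 2 enterocyte-like clusters held 38.9% of the P450 UMIs of crypt cells with 15.9% of the cells. Unnamed clusters held 31.8% of these UMIs, the regenerative-like cluster 16% and the stem-like cluster 10.4%.

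Cyp2e1 measured 13.7 CPM in non-irradiated and 70.1 and 42 CPM in irradiated crypt cells, but 99.7%, 100% and 100% of these UMIs were fractional entries, that is, molecules shared out between several genes. Whether they came from Cyp2e1 cannot be read from the matrices. In the organoid libraries the fractional share of Cyp2e1 was between 87.7% and 98.5%. For the other members with at least 20 CPM in an organoid library it was at most 12.1%.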

How the data were processed

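Bulk RNA was measured in 18 organoid libraries as FPKM in 3 tables, 1 per set, deposited by the authors. The submitters' processing notes list TopHat2 2.1.0, Cuffnorm 2.2.1 and Cuffdiff 2.2.1 as well as STARsolo, and the builds mm9, GRCm39 and mm39, without saying which served which file. How strand and shared fragments were handled: not given in the sources used here. Each table was fitted with limma 3.58.1 (R 4.3.3; trend and robust options, Benjamini-Hochberg over all genes, two-sided) on log2(FPKM + 1), with a minimum mean of 1 FPKM. Interaction terms used 12 libraries from 2 tables, where a factor common to a table cancels. The script was checked on simulated data. The FPKM values keep no read totals, so depth is known only in relative terms.

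The deposited matrices of single cells give estimated counts of UMIs, with fractions where a UMI is shared between genes. They were summed unrounded per library or cluster. Kept cells had 500 UMIs or more, 250 genes or more and no more than 20% of UMIs from mitochondrial genes. Clusters came from scanpy 1.11.5 and leidenalg 0.10.2 (2000 variable genes without P450 genes, 30 components, 15 neighbours, resolution 0.6). Doublets were not removed. No barcode was shared between kept libraries but 1 between 15 h and 24 h and 1 between 24 h and the second irradiated crypt library.

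Values per library are given for genes whose mean reached 10 FPKM in a group and for the 3 largest called rises and falls of each table. The members and lists were chosen with earlier results of these data known. Alternatives covered the pseudocount, filter, scaling, a joint fit, the replicate block, single libraries, cell filters and clustering. The accessibility peaks were not analysed here.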

Additional observations from a re-analysis of the deposited data

Results flagged for a closer look

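The TGFB1 change went in opposite directions with and without irradiation at D7 for some P450 genes. Each was called lower in non-irradiated and higher in irradiated organoids and called in the interaction. The differences (irradiated minus non-irradiated, on the log2(FPKM + 1) scale) were 1.06 for Cyp39a1, 1.36 for Cyp3a13, 1.48 for Cyp3a25, 0.85 for Cyp4f13 and 1.28 for Cyp4f16. From D7 to D11 after irradiation, some P450 genes had calls of opposite sign and a called difference (D11 minus D7). These were 2.49 for Cyp2c29, -1.5 for Cyp2j9, -3.01 for Cyp2w1, -1.0 for Cyp39a1 and -2.05 for Cyp4f13. Cyp39a1 and Cyp4f13 are in both groups. How many of all genes met the same rules was not counted, so these lists do not set P450 genes apart. The D11 call of Cyp2c29 was lost on leaving out 5 of the 6 D11 libraries in turn.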

How the results depend on the processing

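Among log2 changes of single P450 genes recomputed under another setting, 1964 kept direction and side of the threshold, 93 lost the call, 25 gained one and 24 changed sign, none of the last being called as reported. Requiring at least 2-fold left 11 lower of 22 in D7 non-IR organoids, 2 higher of 10 and 6 lower of 17 in D7 IR organoids, 1 higher of 2 at D11, and 11 higher of 20 and 2 lower of 6 for the irradiation interaction. Without a filter on low values 5 in place of 3 were higher in D7 non-IR organoids and 6 in place of 2 at D11, and with a minimum of 5 FPKM 1 was higher in each, while 10 in place of 16 were lower for the day interaction. With pseudocount 0.1, 3 in place of 6 were lower for the irradiation interaction. A joint fit of all 18 libraries called 5 higher at D11. Leaving out 1 library gave 1 to 4 higher at D11: 4 without vehicle replicate 3, and 1 without TGFB1 replicate 1 or 3. The cause was not tested.

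Whether the replicate numbers pair the samples is not known. Same-numbered deviations from the group means correlated at -0.03, 0.16 and 0.05 (D7 non-IR), at 0.07, 0.21 and 0.02 (D7 IR) and at -0.09, -0.03 and 0.09 (D11 IR). Those of different numbers ran from -0.14 to 0.09, from -0.15 to 0.07 and from -0.17 to 0.20 in the same order. With so few libraries these values cannot decide it. With a replicate block 4 in place of 2 genes were higher at D11, and the other counts stayed within 1.5 times.

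Quantile normalization turned Cyp2j6 in D7 non-IR organoids to -0.00099, Cyp51 in D7 IR organoids to -0.039 and, for the day interaction, Cyp27a1 to 0.0029, Cyp4b1 to -0.024 and Cyp4f14 to 0.014. Leaving out 1 library at a time gave ranges across 0 for these changes: Cyp27a1 without irradiation, -0.27 to 0.033, and Cyp20a1 in D7 IR organoids, -0.069 to 0.058. At D11 the ranges were -0.31 to 0.086 for Cyp2b10, -0.20 to 0.17 for Cyp2j6, -0.14 to 0.043 for Cyp4f16 and -0.0098 to 0.27 for Cyp3a25. For the day interaction they were -0.26 to 0.39 for Cyp2s1, -0.0037 to 0.099 for Cyp51, -0.19 to 0.11 for Cyp27a1, -0.33 to 0.019 for Cyp2c68, -0.28 to 0.22 for Cyp4f14, -0.0096 to 0.10 for Cyp4b1 and -0.035 to 0.25 for Cyp4f40.

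At cluster resolution 1.0, clusters named enterocyte-like or villus tip-like held 21.3% of P450 UMIs in place of 72.2%, since 13 clusters stayed unnamed, while clusters with either as highest marker list held 79.8% in place of 76.1%. Counting only whole-number UMIs moved 106 of 196 single-cell levels beyond their counting interval, and a stricter cell filter moved 49.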
